A study of Homo sapiens with 2 samples.

Results

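The 6 human genes NRF1, INO80D, SMARCE1, CDK13, KMT2E and ANP32B encode regulators of transcription or chromatin. They were chosen for strong peaks in a deposited list of ZFX sites, and 8 of its 14471 peaks overlapped the stretch from 5 kb before to 5 kb after their start sites on the hg19 build. The sites are those of the zinc finger protein ZFX, located by ChIP-seq (sequencing of DNA recovered by chromatin immunoprecipitation) in the established medulloblastoma line DAOY. The series held 2 samples of these cells, sheared chromatin precipitated with a polyclonal antibody raised in rabbit against ZFX, and sheared chromatin that was not precipitated (input). The labels give no treatment or genotype for either sample. The peak values below come from the 1 list deposited for the precipitated library, so no difference between peaks has a replicate check. The input was not analysed separately, and whether it served as control for the peaks is not stated. Without a stated read depth, the precision of a single peak is unknown. The peak list holds no expression values, so the cell type could not be checked against marker genes.

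The 6 gene products work at several steps between chromatin and RNA. NRF1 (nuclear respiratory factor 1) is a transcription factor that activates many nuclear genes for mitochondrial proteins. INO80D is a subunit of the INO80 complex, which moves and exchanges nucleosomes with energy from ATP, and SMARCE1 (BAF57) is a subunit of the SWI/SNF (BAF) remodelling complexes with a DNA-binding HMG box. CDK13 pairs with cyclin K and phosphorylates the tail of RNA polymerase II. KMT2E (MLL5) carries a PHD finger that binds methylated histone H3 and a SET domain, and ANP32B is an acidic nuclear protein that binds histones as a chaperone. ZFX itself is known to bind mostly at promoters just downstream of the start of transcription, with a motif whose core is AGGCCT.

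The promoter sequences show what kind of DNA lies at these starts. RefSeq promoters on GRCh38.p14 were matched for 5 of the 6 genes, with NRF1 the exception, and CDK13 had 2 annotated starts. The 250 bases before the start are printed 5′ to 3′ in the direction of the gene, with each CpG dinucleotide in capitals, because these promoters differ in CpG density. They lie at chr2:206086175-206086424 on the minus strand for INO80D, chr17:40647819-40648068 on the minus strand for SMARCE1, chr7:39950006-39950255 on the plus strand for the first start of CDK13, chr7:105013955-105014204 on the plus strand for KMT2E and chr9:97983091-97983340 on the plus strand for ANP32B.
INO80D: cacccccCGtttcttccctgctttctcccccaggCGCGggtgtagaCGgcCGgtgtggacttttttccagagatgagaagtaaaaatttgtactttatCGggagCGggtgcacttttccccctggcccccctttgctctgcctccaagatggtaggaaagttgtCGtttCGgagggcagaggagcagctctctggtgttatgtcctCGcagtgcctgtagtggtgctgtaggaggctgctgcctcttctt
SMARCE1: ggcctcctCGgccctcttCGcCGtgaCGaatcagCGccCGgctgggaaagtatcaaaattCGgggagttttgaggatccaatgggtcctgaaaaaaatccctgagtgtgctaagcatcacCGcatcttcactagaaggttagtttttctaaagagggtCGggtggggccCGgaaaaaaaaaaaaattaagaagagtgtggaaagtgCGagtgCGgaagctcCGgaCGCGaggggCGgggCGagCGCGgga
CDK13: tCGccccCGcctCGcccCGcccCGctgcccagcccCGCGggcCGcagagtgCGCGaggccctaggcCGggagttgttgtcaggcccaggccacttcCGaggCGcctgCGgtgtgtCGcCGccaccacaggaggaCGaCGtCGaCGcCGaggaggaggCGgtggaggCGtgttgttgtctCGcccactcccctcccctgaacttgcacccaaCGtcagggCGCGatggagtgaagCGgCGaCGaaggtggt
KMT2E: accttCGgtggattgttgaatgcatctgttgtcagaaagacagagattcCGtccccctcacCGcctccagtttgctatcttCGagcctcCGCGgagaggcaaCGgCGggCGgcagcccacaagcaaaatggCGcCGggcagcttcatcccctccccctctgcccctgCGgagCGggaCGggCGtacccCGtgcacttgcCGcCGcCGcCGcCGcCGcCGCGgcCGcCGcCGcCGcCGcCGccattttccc
ANP32B: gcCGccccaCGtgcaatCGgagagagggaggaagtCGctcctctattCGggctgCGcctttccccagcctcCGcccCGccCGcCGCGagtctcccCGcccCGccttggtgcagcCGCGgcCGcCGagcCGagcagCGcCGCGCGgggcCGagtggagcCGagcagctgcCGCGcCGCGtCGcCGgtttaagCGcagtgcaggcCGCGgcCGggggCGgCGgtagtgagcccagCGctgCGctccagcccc
The printed stretch held 10 CpG in INO80D, 19 in SMARCE1, 30 in CDK13, 30 in KMT2E and 38 in ANP32B. Positions were not compared between builds, so it was not checked that a RefSeq start is the same base as the hg19 start used for the peaks.

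All 6 genes had a peak over the start site itself. The strongest peak of each gene scored from 935.2 to 3100, with a median of 2898, against a median of 108.9 for the whole list. The score is the authors' own and has no stated unit. In 5 of 6 genes it reached 1000 or more, as did 2.10% of all peaks. In the same 5 genes it reached 2000, as did 0.574% of all peaks, and in 3 of them it was 3100, a value reached or passed by 0.214% of all peaks. The genes were selected for these scores, so the counts describe the choice and are not a finding.

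**Figure D1:**
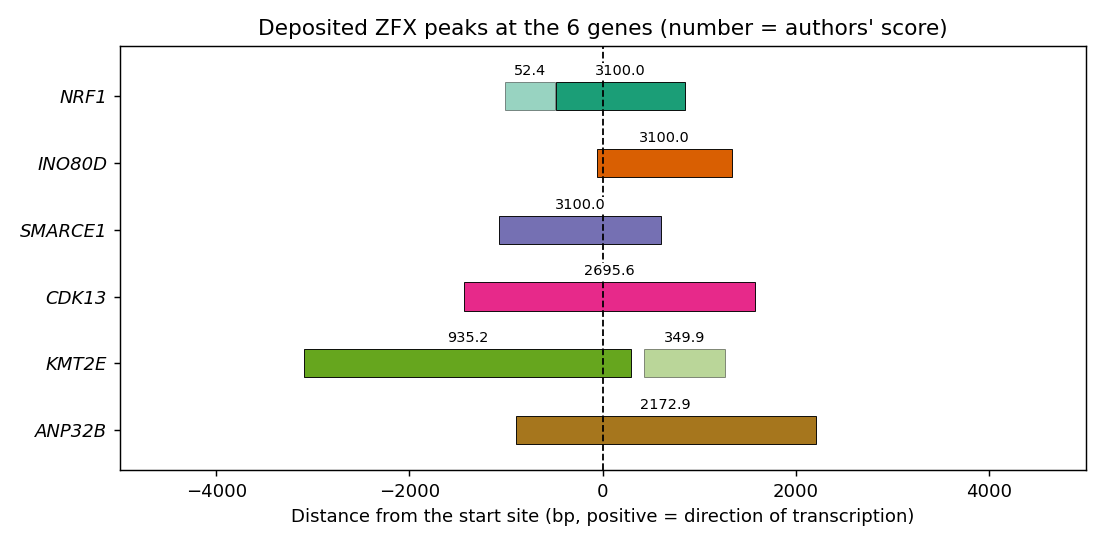
Position of the 8 peaks relative to the start site of each gene (horizontal axis, in bp, positive in the direction of transcription), with 1 row per gene, the number above each bar giving the authors' score and paler bars marking the weaker peak of a gene. Every dashed start site lies under the strongest peak of its gene, which reaches mostly downstream at INO80D and mostly upstream at KMT2E.

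The transcription factor gene NRF1 on chromosome 7 (plus strand, start site 129251561) had 2 peaks. The stronger lay at 129251078 to 129252416, was 1339 bp wide and scored 3100, a value shared by 28 peaks of the list and exceeded by 3. It ran from 483 bp before to 855 bp after the start site. The other peak lay at 129250551 to 129251071, had its nearer edge at -490 bp from the start site and scored only 52.4, close to the lowest score of the list, 50. Only 6 bp separated these neighbours, whose scores differed 59.2-fold. The score has no stated unit and 28 peaks share the value 3100, so this ratio does not measure a difference in binding. The NRF1 promoter therefore carried both one of the highest-scoring peaks and one that 94.3% of all peaks outscored.

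Both remodeller subunit genes had a single peak at the same score of 3100, placed differently around the start. INO80D on chromosome 2 (minus strand, start site 206950906) had a peak of 1402 bp at 206949567 to 206950968. This peak began 62 bp before the start site and ended 1339 bp after it, so 4.42% of its length lay upstream. None of the 1035 peaks of chromosome 2 scored higher, and peaks there with the same score were not counted. SMARCE1 on chromosome 17 (minus strand, start site 38804103) had a peak of 1683 bp at 38803498 to 38805180, which ran from 1077 bp before to 605 bp after the start site, with 64.0% of its length upstream.

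CDK13 and ANP32B carried the broad, high-scoring peaks of the group. The CDK13 peak on chromosome 7 (plus strand, start site 39989959) covered 39988526 to 39991538, was 3013 bp wide and scored 2695.59, which placed it at rank 41 of 14471. It was nearly centred on the start site, from 1433 bp before to 1579 bp after it. At ANP32B on chromosome 9 (plus strand, start site 100745643) the peak covered 100744742 to 100747848, was 3107 bp wide and scored 2172.94, rank 72 in the list. It ran from 901 bp before to 2205 bp after the start site, and 29.0% of it lay upstream.

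KMT2E had the widest peak and the lowest leading score of the 6 genes. On chromosome 7 (plus strand, start site 104654637), a peak of 3380 bp at 104651548 to 104654927 scored 935.2, rank 343. It reached from 3089 bp before to 290 bp after the start site, so that 91.4% of it lay upstream. A peak of 838 bp followed after a gap of 139 bp, at 104655067 to 104655904, and scored 349.91. It lay between 430 and 1267 bp downstream of the start site. With both peaks taken as a single region, the region at KMT2E spanned 4357 bp.

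The midpoints of the strongest peaks lay on both sides of the start sites. Measured in the direction of transcription, the midpoint was 73 bp after the start at CDK13, 186 bp after it at NRF1, 638.5 bp after it at INO80D and 652 bp after it at ANP32B. At SMARCE1 and KMT2E the midpoint fell upstream, at -236 and -1399.5 bp. The median over the 6 genes was 129.5 bp downstream. It moved to -2.25 bp when peaks at most 1 kb apart were joined, which merged the peaks of NRF1 and of KMT2E, and the midpoint at NRF1 then fell upstream, at -77.5 bp. The side of the median thus depends on how close peaks are treated. For the other 4 genes joining changed nothing, and at INO80D and ANP32B the midpoint stayed 638.5 and 652 bp downstream.

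Width separated the 6 genes into a narrower and a wider set. Peaks of high score were wider than the list as a whole. Their median width was 1194 bp for the 304 peaks scoring 1000 or more, against 481 bp for all peaks. The genes were chosen by score, with earlier results of these data known. The contrast in width between these sets is therefore a description and not a finding. CDK13, KMT2E and ANP32B had peaks of 3000 bp or more, a limit set after the values were seen, and these were 3 of the only 8 such peaks among 14471 (0.0553%). Among the 304 peaks scoring 1000 or more, 5 were this wide, the CDK13 and ANP32B peaks included. The CDK13 peak was the widest of the 20 peaks scoring within 10% of it (median width 1149.5 bp), and the ANP32B peak was the widest of the 32 in its own range (median 1173.5 bp). Of the 138 peaks scoring within 10% of the KMT2E peak, whose median width was 1074.5 bp, 1 was wider. NRF1, INO80D and SMARCE1 were less unusual for their score. Of the 36 peaks within 10% of the score 3100, with a median width of 1223 bp, 13 were wider than the NRF1 peak, 12 wider than the INO80D peak and 9 wider than the SMARCE1 peak. Of the minor peaks, only the one at NRF1 was wide for its score. Its 521 bp stood against a median of 282 bp for 2108 peaks of like score, of which 1.85% were wider. The 838 bp of the second KMT2E peak stood against a median of 812 bp for 597 peaks, of which 46.6% were wider.

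**Figure D2:**
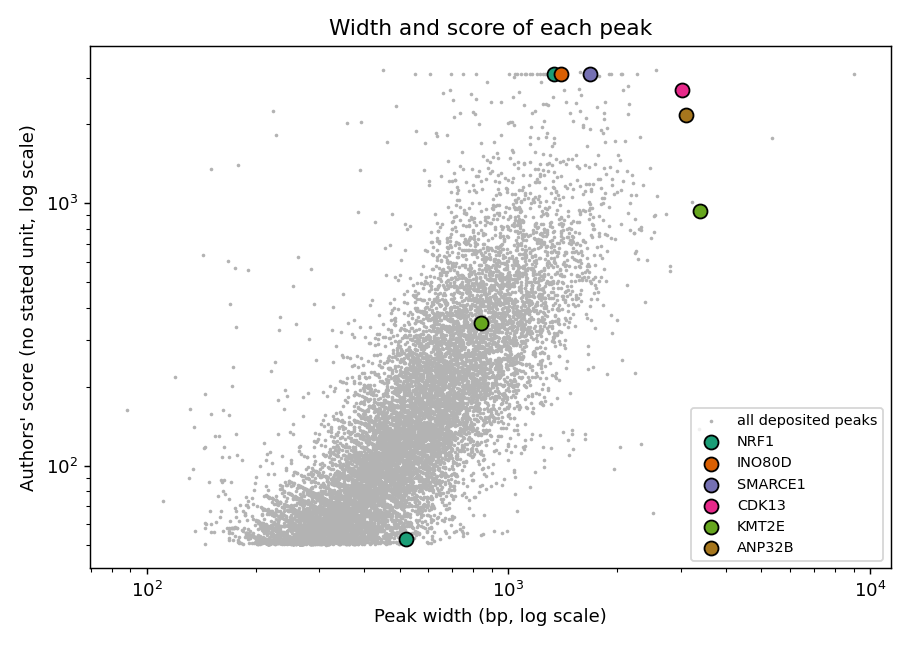
Width (horizontal axis, bp, log scale) and authors' score (vertical axis, log scale) of every deposited peak in grey, with the 8 peaks of the 6 genes in colour. The strongest peaks of CDK13, ANP32B and KMT2E lie at the wide edge of the cloud and those of NRF1, INO80D and SMARCE1 on the line of peaks that share the score 3100, while the weaker peaks of KMT2E (349.91) and NRF1 (52.4) lie lower.

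The surroundings of these peaks were described out to 500 kb from each start site. No edge of the 8 peaks lay more than 3089 bp from its start site, and the nearest peak outside the windows was 29.5 kb away, at KMT2E. In 4 of 6 genes (INO80D, SMARCE1, CDK13 and ANP32B) no other peak lay within 50 kb of the strongest one, which held for 29.0% of all peaks and for 38.8% of the 304 peaks scoring 1000 or more. For 6 chosen genes the count is too small to be read against these shares. Apart from its own pair, NRF1 had no peak within 100 kb of its start site, and CDK13 had none apart from its single peak. Within 500 kb of the start site, the strongest peak of 5 genes outscored every other peak. Because the genes were chosen for strong peaks, this describes the choice and is not a finding. At SMARCE1 the next highest of 14 other peaks scored 326.7, and at INO80D the next of 12 scored 331.09. NRF1 had 17 other peaks in that range, of which the highest scored 603.01. At CDK13 and ANP32B, with 6 and 11 others, the next highest scored 786.15 and 631.73.

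KMT2E was the exception among the 6. A peak of 1214 bp at 104623946 to 104625159 on chromosome 7, 29.5 kb upstream of its start site, scored 978.31 and so slightly more than the 935.2 of the peak at the start. With no replicate it cannot be said that the scores of these peaks differ. Only 5 other peaks lay within 500 kb of KMT2E, with a median score of 313.37. That median was 64.33 around SMARCE1, 76.29 around INO80D, 85.99 around NRF1, 121.73 around ANP32B and 153.66 around CDK13.

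**Figure D3:**
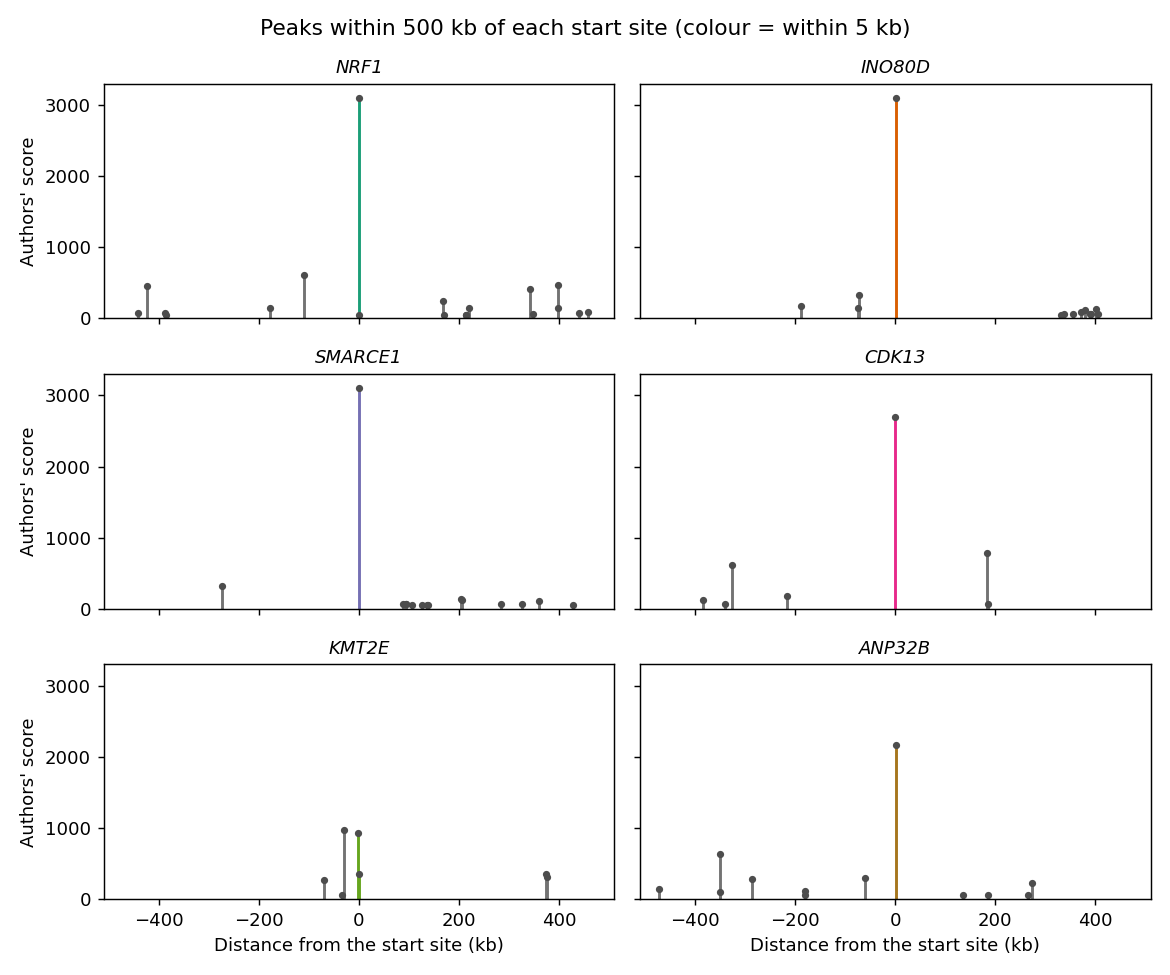
Authors' score (vertical axis) of each peak within 500 kb of the 6 start sites, by the distance of its midpoint in kb (horizontal axis, positive in the direction of transcription), with peaks within 5 kb in colour and others in grey. A single tall peak stands at the start of every gene but KMT2E, where a peak 29.5 kb upstream has a similar score.

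Other transcripts begin or lie beside 4 of the 6 starts in the RefSeq gene table. The noncoding gene KMT2E-AS1 is annotated beside KMT2E and CDK13-DT beside CDK13, both on the strand opposite to the coding gene. INO80D-AS1 lies across the start of INO80D. At ANP32B, LOC124902226 lies across the start on the opposite strand and LOC124902225 lies within 5 kb on the same strand. No other annotated gene lay within 5 kb of the start of NRF1 or SMARCE1. At the other 4 genes a peak over the start cannot be assigned to the coding gene rather than to its noncoding neighbour.

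Base composition set INO80D apart from the other promoters that were matched. Over the 300 bases from 250 before to 50 after the RefSeq start, the ratio of observed to expected CpG was 0.46 at INO80D, with 11 CpG and 56.3% G+C. SMARCE1 had the same G+C content but 25 CpG and a ratio of 1.10. KMT2E (0.99), ANP32B (1.00) and both starts of CDK13 (0.96 and 1.03) had 35 to 41 CpG and between 69.0% and 74.0% G+C. The median ratio over 22197 protein-coding promoter entries was 0.74, and 32.7% of them were below 0.5. Placed on the hg19 start, the INO80D peak overlapped 112 of the corresponding 300 positions, whereas the strongest peaks of the other 5 genes covered all 300. Sequence under the rest of the INO80D peak was not read here.

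**Figure D4:**
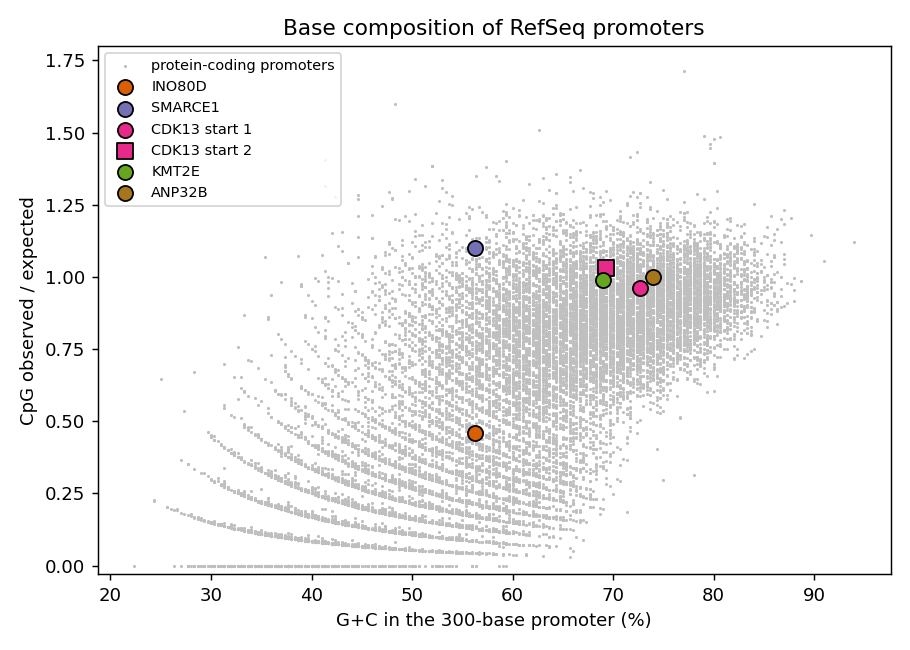
G+C content in percent (horizontal axis) and observed over expected CpG (vertical axis) of 300-base RefSeq promoters, with protein-coding promoters in grey and those of 5 genes in colour (2 starts for CDK13, the second as a square). INO80D at 0.46 lies below the other coloured points, which are at 0.96 to 1.10.

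No promoter of the 5 genes contained AGGCCT, the core of the ZFX motif, which reads the same on both strands. Of all 35114 promoter entries of that length, 10.9% contained it, and of protein-coding genes counted once with any match, 13.9%. The other shares below are per entry, whereas the members were counted per gene. Its shorter part GGCCT, searched on both strands and present in 56.2% of all entries and 59.6% of protein-coding ones, occurred in 3 of the 5 genes. The first start of CDK13 had 5 matches, 4 of them with first bases 195, 188, 170 and 164 bp upstream. The remaining match, with its first base 38 bp downstream, was also the only match of the second start, because the windows of both starts overlap. ANP32B and SMARCE1 had 1 match each. The GC box GGGCGG (45.0% of all entries, 56.3% of protein-coding ones) was found in ANP32B with 5 matches and in CDK13, KMT2E and SMARCE1 with 1 each. A CCAAT box (34.6%) occurred in SMARCE1 alone, 173 bp before the start. TATAAA (11.5%), the ETS motif CCGGAAG (10.3%) and the NRF1 core GCATGCGC (3.05%) had no match in the 5 genes. A missing match says only that these letters are not in the 300 bases searched, which are shorter than any of the strongest peaks.

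Partners and relatives of the 6 genes were compared by promoter sequence only, because start sites on hg19 were used for the 6 genes alone and peaks at their partners were not analysed here. Of the 15 subunits listed for the INO80 complex, 14 had a promoter entry, with a median CpG ratio of 0.88. INO80D and MCRS1 (0.43) were the only ones below 0.5. The median was 0.94 over 10 of 14 BAF subunits and 0.96 over 12 transcriptional kinases and their partners. No gene was below 0.5 in either list. AGGCCT was present at ACTR5, MCRS1 and UCHL5 of the INO80 list, that is in 3 of 14 genes. In the BAF list it was present at SMARCB1, SMARCD2, SMARCD3 and PBRM1 (4 of 10 genes), and in the kinase list at CDK19 (1 of 12 genes). It was found in 0 of 6 genes of the KMT2 list and 0 of 3 of the ANP32 family. Genes with several starts were counted once, at the highest ratio or with any match. Counted in this way, 13.9% of the 15841 protein-coding genes with a promoter entry had AGGCCT. The lists are too short to be read against that share.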

How the data were processed

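ChIP-seq of ZFX in DAOY cells was analysed from 1 deposited peak list, and its sample was taken from the antibody label. Bowtie2 2.0.0 and the build hg19 are named, without roles, per the submitters' processing notes. The caller MACS is known from the names of the deposited peaks. No source used here gives its version, threshold or control, and the score of each peak was deposited by the authors without a stated unit. Starts were taken as counted from 0 and are printed counted from 1. The 6 start sites on hg19 came with the choice of genes. A peak belonged to a gene when it overlapped the start site within 5 kb, and distances follow the direction of transcription. The genes, their lists and limits were chosen with earlier results of these data known, and all 6 genes are named with every peak. With 1 library, no test was run. Promoters came from RefSeq on GRCh38.p14, and 2 entries with unknown bases were left out. Overlap and motif functions were tested on simulated data. Python 3.11.15, numpy 2.4.6, pandas 2.3.3 and matplotlib 3.10.9 were used.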

Additional observations from a re-analysis of the deposited data

How the results depend on the processing

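For 7 results, 24 alternatives were tried, and 22 kept the value or stayed within 1.5 times of it, 18 of them with an equal value. With windows of 1 kb or 10 kb in place of 5 kb, the number of genes with a peak, of peaks and of genes with a score of 1000 or more, and the median distance, were equal to those given above. Every peak reached within 1 kb of its start site and no other peak lay within 10 kb, so these windows could not change the values. The 8 peaks became 7 above the median score and 6 when peaks at most 1 kb apart were joined. The median distance of the strongest peak's midpoint from the start site changed side with joining, from 129.5 to -2.25 bp. Joining moved the midpoint at NRF1 from 186 to -77.5 bp and that at KMT2E from -1399.5 to -911 bp, so the change of side came from NRF1. Promoters with the motif numbered 0 of 5 for AGGCCT and 3 for the shorter GGCCT, which matches more often by construction. No paired analysis was possible because each group has 1 sample and the result comes from no test. Depth is unknown, so weaker peaks that were missed near these genes cannot be counted, and the shared score of 3100 gives no order among NRF1, INO80D and SMARCE1. The peaks were not screened for repeated sequence.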
